A study of Arabidopsis thaliana with 12 samples.

Results

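Aquaporins are channel proteins that let water, and in some members small uncharged solutes, pass through plant membranes. The 35 Arabidopsis aquaporin genes were taken by locus and are 35 of the 32627 loci measured on each array: 13 plasma membrane intrinsic proteins (PIPs), 10 tonoplast intrinsic proteins (TIPs), 9 NOD26-like intrinsic proteins (NIPs) and 3 small basic intrinsic proteins (SIPs). All 35 had a value on every array. A gene is named by its subfamily and number, such as PIP1-1, and several carry older symbols: PIP1-1 is also PIP1A, PIP2-3 is RD28, TIP1-1 is GAMMA-TIP and TIP2-1 is DELTA-TIP.

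PIPs carry water across the plasma membrane and set much of the hydraulic conductance of leaves and roots, and PIP1 proteins generally reach the plasma membrane together with PIP2 proteins. TIPs act in the vacuolar membrane, NIPs carry solutes such as boric acid, arsenite and lactic acid, and SIPs reside in the endoplasmic reticulum. Aquaporin activity in leaves is known to respond to water supply, light and microbial elicitors, in part through phosphorylation and trafficking, which transcript levels do not show.

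All plants carried a transgene for MKK4DD, a constitutively active MAP kinase kinase that activates MPK3 and MPK6, behind a promoter induced by dexamethasone (DEX). The transgene was in wild-type Col or, after a cross, in sid2, a mutant of the salicylic acid (SA) synthesis gene SID2. Leaves of plants aged 4 weeks were infiltrated with 2 µM DEX, or with 0.1% ethanol as mock, and collected at 24 hours post inoculation (hpi). The 12 arrays formed 4 groups of n = 3 independent experiments: Col DEX, Col mock, sid2 DEX and sid2 mock. DEX-treated plants lacking the transgene were not analysed here, so the action of DEX itself and that of the kinase cannot be told apart.

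The level of a gene is its log2 intensity, and the DEX effect is DEX minus mock on that scale, given with its SE from the fit. Calls required a change of over 2-fold and an adjusted p below 0.01. Array medians were 7.99 to 8.18 and lower quartiles 4.15 to 4.20. MKK4, to whose signal the transgene can add, showed 14.04, 14.05 and 14.23 in Col DEX leaves, against 11.95, 12.25 and 12.36 in Col mock leaves, and 13.82, 14.06 and 14.22 in sid2 DEX leaves, against 12.19, 11.75 and 12.07 in sid2 mock leaves. SID2 did not follow the label on 1 array: it read 12.48, 6.08 and 12.26 in Col DEX replicates 1, 2 and 3, against 9.72 to 10.36 in Col mock leaves, while none of the 6 sid2 arrays was above 6.26. The array labelled Col DEX replicate 2 was therefore at the sid2 level for this gene, and counts of calls in Col are also given without it. Shares of all loci are from all 12 arrays throughout. Markers of seed and of root epidermis stayed between 2.87 and 4.82, below or near the lower quartile. The median of 4 pollen markers was 6.23 on the Col mock replicate 2 array and 7.61 on the sid2 mock replicate 2 array, against 3.96 to 4.36 on the other 10 arrays.

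More aquaporin genes were called lower than higher with DEX in both backgrounds. In Col, 15 of the 35 were called lower and 3 higher, where 15.0% of all loci were called lower and 13.8% higher. In sid2, 12 were called lower and 3 higher, beside 14.8% and 13.0% of all loci. The same 12 genes were called lower in both backgrounds (34.3% of the members, beside 14.0% of all loci), and the same 3 were called higher in both (8.57%, beside 12.2%). The median DEX effect of the 35 genes was -0.71 in Col and -0.54 in sid2, while that of all loci was 0.04 in both. DEX arrays lay below all mock arrays for 19 members in Col (26.8% of all loci) and 17 in sid2 (28.3%), and above them for 6 in Col (30.9%) and 8 in sid2 (32.3%). In each called member the 3 pairs of arrays with 1 replicate number moved the same way. The calls rest on the same arrays, so this adds no separate evidence. Called or not, 29 of the 35 members had 3 such pairs in Col and 28 in sid2. Without the array labelled Col DEX replicate 2, 13 members were called lower and 3 higher in Col, and no member's DEX effect moved by more than 0.39. Without Col mock replicate 1, or without Col mock replicate 2, only TIP4-1 was called higher in Col.

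**Figure D1:**
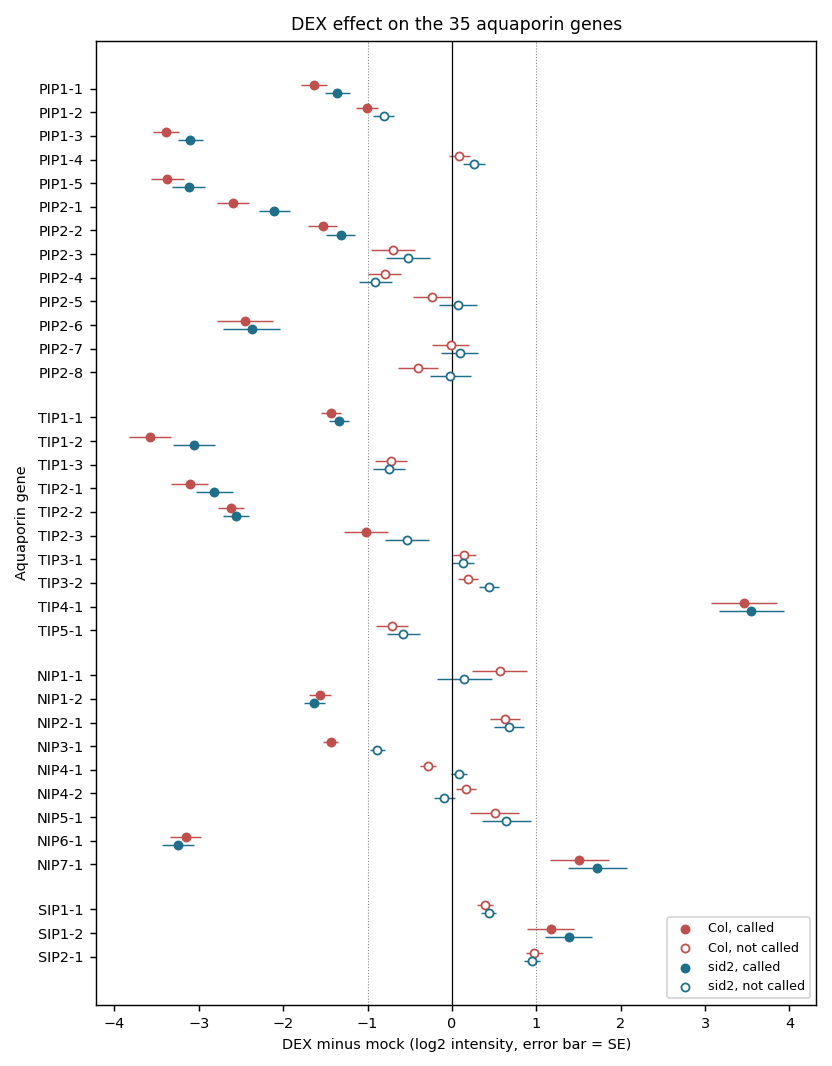
DEX effect (DEX minus mock, log2 intensity) of each of the 35 aquaporin genes in Col and in sid2, with the SE as error bar and dotted lines at the 2-fold limits. Filled points were called. Most filled points lie left of the lower limit, and TIP4-1, NIP7-1 and SIP1-2 lie right of the upper one in both backgrounds.

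Counts by subfamily were taken in the same way. Over all loci, 15.0% were called lower and 13.8% higher in Col, and 14.8% and 13.0% in sid2. Of the 13 PIPs, 7 were called lower in Col (53.8%) and 6 in sid2 (46.2%), and 0 higher. Of the 10 TIPs, 5 were called lower in Col (50%) and 4 in sid2 (40%), with 1 higher in each (10%). Of the 9 NIPs, 3 were called lower in Col (33.3%) and 2 in sid2 (22.2%), with 1 higher in each (11.1%). The 3 SIPs had 0 called lower and 1 called higher in each background. Median DEX effects were -1.01 in Col and -0.91 in sid2 for PIPs, -0.87 and -0.66 for TIPs, 0.17 and 0.08 for NIPs, and 0.98 and 0.94 for SIPs. Without the array labelled Col DEX replicate 2, Col had 6 PIPs and 4 TIPs called lower, as many as sid2, with the counts of NIPs (3 lower and 1 higher) and SIPs (1 higher, SIP2-1 in place of SIP1-2) as before. With few members each, subfamilies were described and not tested against each other.

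PIP1 genes encode plasma membrane channels that need PIP2 partners for full activity. Of the 5, PIP1-3 and PIP1-5 had the largest falls. PIP1-3 (AT1G01620) had 9.28, 9.30 and 9.41 in Col DEX leaves, against 12.80, 12.31 and 13.06 in Col mock leaves. In sid2 its levels were 9.50, 9.68 and 9.65 in sid2 DEX leaves, against 12.54, 12.71 and 12.87 in sid2 mock leaves. The DEX and mock arrays lay about 3 units apart with no overlap, and no DEX array reached 9.7 while every mock array was above 12. PIP1-3 fell in both backgrounds, at -3.39 ± 0.15 in Col (10.5-fold, adjusted p = 1.14e-08) and -3.10 ± 0.15 in sid2 (8.58-fold, adjusted p = 2.42e-08). PIP1-5 (AT4G23400) had 9.66, 9.13 and 9.17 in Col DEX leaves, against 12.64, 12.52 and 12.93 in Col mock leaves. The sid2 background gave 9.63, 9.45 and 8.99 in sid2 DEX leaves, against 12.28, 12.43 and 12.71 in sid2 mock leaves. Again all DEX arrays lay well below all mock arrays. PIP1-5 fell in both backgrounds, at -3.38 ± 0.20 in Col (10.4-fold, adjusted p = 8.13e-08) and -3.12 ± 0.20 in sid2 (8.69-fold, adjusted p = 1.62e-07).

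PIP1-1 and PIP1-2 fell less. PIP1-1 (AT3G61430) measured 12.27, 11.61 and 11.85 in Col DEX leaves, against 13.60, 13.32 and 13.71 in Col mock leaves. Its sid2 values were 12.32, 11.94 and 12.01 in sid2 DEX leaves, against 13.45, 13.25 and 13.63 in sid2 mock leaves. The groups did not overlap, and the lowest DEX array was the one labelled Col DEX replicate 2. PIP1-1 fell in both backgrounds, at -1.64 ± 0.15 in Col (adjusted p = 3.26e-06) and -1.36 ± 0.15 in sid2 (adjusted p = 1.54e-05). PIP1-2 (AT2G45960), a contributor to leaf hydraulic conductance and CO2 diffusion, measured 13.05, 12.62 and 13.09 in Col DEX leaves, against 13.84, 13.76 and 14.19 in Col mock leaves. In sid2 it measured 13.03, 12.81 and 13.13 in sid2 DEX leaves, against 13.83, 13.71 and 13.85 in sid2 mock leaves. DEX arrays were below mock arrays in both backgrounds, and the size of the change lay at the 2-fold limit. PIP1-2 was called in Col at -1.01 ± 0.13 (adjusted p = 3.60e-05) and not in sid2, where -0.81 ± 0.13 was under 2-fold (adjusted p = 2.07e-04). The difference between these effects was 0.20 (95% interval -0.19 to 0.59). Without the array labelled Col DEX replicate 2 its Col effect was -0.89, and without Col mock replicate 3 it was -0.91, neither called.

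PIP1-4 (AT4G00430), which can carry hydrogen peroxide as well as water, was not called in either background. Its DEX effect was 0.09 ± 0.13 in Col (95% interval -0.19 to 0.37) and 0.26 ± 0.13 in sid2 (-0.02 to 0.54). These intervals exclude a 2-fold change in either direction.

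Among the 8 PIP2 genes, whose products are the more active water channels of the plasma membrane, PIP2-1, PIP2-2 and PIP2-6 were called lower in both backgrounds. PIP2-1 (AT3G53420), a water and hydrogen peroxide channel that takes part in stomatal closure, had 11.95, 11.23 and 11.59 in Col DEX leaves, against 14.36, 13.87 and 14.34 in Col mock leaves. In sid2 it had 11.87, 12.27 and 11.91 in sid2 DEX leaves, against 14.08, 14.17 and 14.11 in sid2 mock leaves. Every mock array was above every DEX array, in both backgrounds. PIP2-1 fell in both backgrounds, at -2.59 ± 0.19 in Col (6.04-fold, adjusted p = 4.16e-07) and -2.11 ± 0.19 in sid2 (4.30-fold, adjusted p = 2.35e-06). PIP2-6 (AT2G39010) gave 12.14, 10.32 and 11.16 in Col DEX leaves, against 13.67, 13.52 and 13.79 in Col mock leaves. The sid2 arrays gave 11.91, 10.81 and 11.02 in sid2 DEX leaves, against 13.66, 13.54 and 13.67 in sid2 mock leaves. The mock arrays of PIP2-6 differed by under 0.3 while the DEX arrays spread over more than 1 unit in both backgrounds, with replicate 1 highest. PIP2-6 fell in both backgrounds, at -2.45 ± 0.34 in Col (adjusted p = 7.17e-05) and -2.38 ± 0.34 in sid2 (adjusted p = 9.56e-05).

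PIP2-2 (AT2G37170) and PIP2-3 (AT2G37180) lie next to each other on chromosome 2 and are close in sequence. The probe sequences were not analysed here, so signal shared between them cannot be separated. PIP2-2 had 12.28, 11.58 and 11.57 in Col DEX leaves, against 13.37, 13.13 and 13.52 in Col mock leaves. Its levels in sid2 were 12.35, 11.97 and 11.91 in sid2 DEX leaves, against 13.46, 13.27 and 13.45 in sid2 mock leaves. DEX and mock arrays did not overlap, and PIP2-2 fell in both backgrounds, at -1.53 ± 0.17 in Col (adjusted p = 1.39e-05) and -1.32 ± 0.17 in sid2 (adjusted p = 4.75e-05). PIP2-3 had 12.77, 11.95 and 12.31 in Col DEX leaves, against 13.14, 12.40 and 13.58 in Col mock leaves. In sid2 PIP2-3 had 12.83, 12.43 and 12.39 in sid2 DEX leaves, against 13.17, 12.62 and 13.42 in sid2 mock leaves. Here the groups overlapped, with a low replicate 2 mock array in both backgrounds. The DEX effect of PIP2-3 was -0.70 ± 0.26 in Col (adjusted p = 0.0388) and -0.52 ± 0.26 in sid2 (adjusted p = 0.113), neither called.

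Of the other 4 PIP2 genes, none was called. PIP2-4, studied mostly in roots, was below 2-fold at -0.80 ± 0.20 in Col (adjusted p = 0.00484) and -0.91 ± 0.20 in sid2 (adjusted p = 0.00221), with no overlap between DEX and mock arrays. PIP2-5, PIP2-7 and PIP2-8 had DEX effects of -0.40 to -0.02 in Col and -0.02 to 0.09 in sid2. PIP2-7 (AT4G35100), an abundant leaf water channel whose trafficking depends on the syntaxin SYP121, had 95% intervals of -0.50 to 0.47 in Col and -0.39 to 0.58 in sid2.

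Several leaf mesophyll and guard cell markers were called lower, as PIPs were. Of 4 mesophyll markers, 3 were called lower in Col and 2 in sid2, where 15.0% and 14.8% of all loci were, and their median level was 10.5 to 11.5 in Col DEX arrays, against 14.0 to 14.2 in Col mock arrays, and 11.3 to 11.9 in sid2 DEX arrays, against 14.0 to 14.1 in sid2 mock arrays. Of 5 guard cell markers, 2 were called lower in Col (3 without the array labelled Col DEX replicate 2) and 3 in sid2, with medians of 8.08 to 8.14 in Col DEX arrays, against 9.89 to 10.4 in Col mock arrays, and 7.88 to 8.14 in sid2 DEX arrays, against 9.82 to 10.2 in sid2 mock arrays. The guard cell regulator FAMA was not called, with effects of 0.14 in Col and 0.29 in sid2. None of 3 phloem markers was called, with effects of -0.36 to 0.52 in Col and -0.28 to 0.42 in sid2. The mesophyll and phloem counts in Col were the same without that array. The part of these markers in the aquaporin changes was not tested. In whole leaves, fewer cells of a type and less RNA per cell cannot be told apart.

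**Figure D2:**
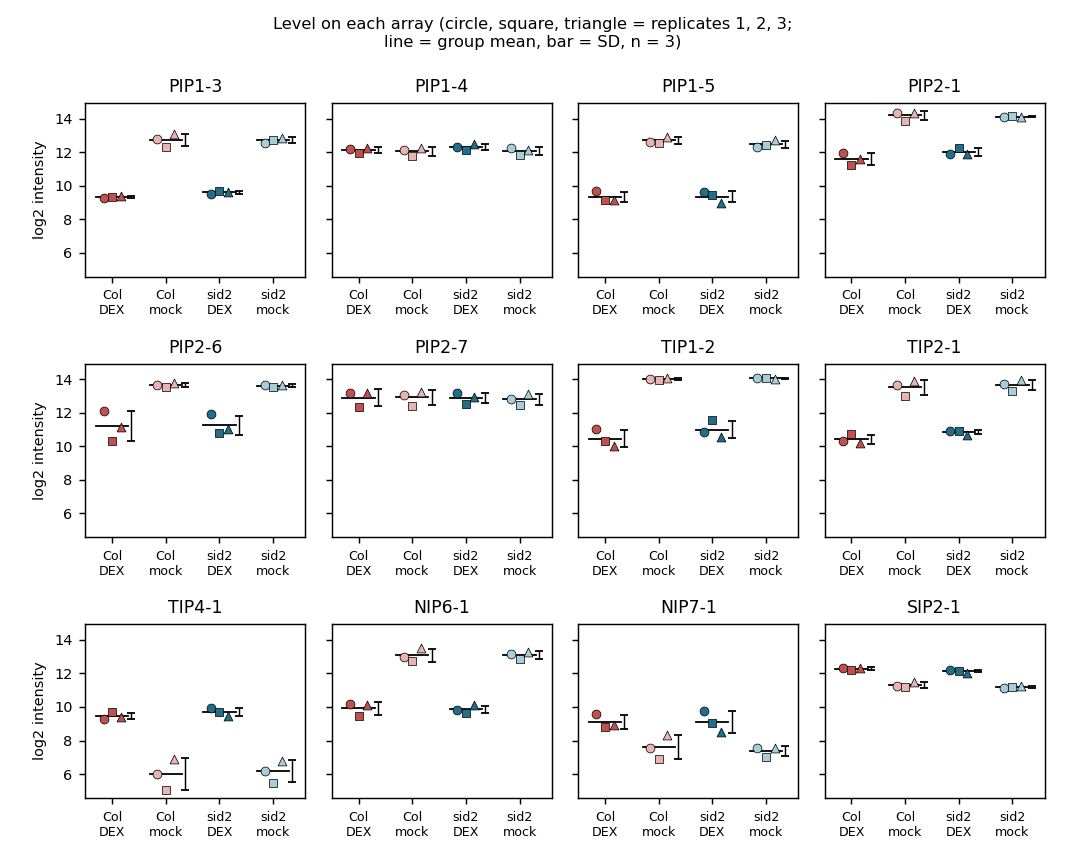
Log2 intensity of 12 aquaporin genes on each of the 12 arrays. Symbols are replicates 1 to 3, the line is the group mean and the bar the SD (n = 3). PIP1-4 and PIP2-7 have overlapping groups, the other PIPs shown, TIP1-2, TIP2-1 and NIP6-1 have DEX arrays below all mock arrays, and TIP4-1, NIP7-1 and SIP2-1 have DEX arrays above them.

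TIPs set the water permeability of the vacuole, and TIP1 and TIP2 members are the main ones of leaves and roots. TIP1-2 (AT3G26520) had the largest fall of all members in Col, and TIP2-1 and TIP2-2 fell alongside it. TIP1-2 had 11.01, 10.30 and 10.02 in Col DEX leaves, against 14.03, 13.97 and 14.08 in Col mock leaves. In sid2 it measured 10.85, 11.57 and 10.58 in sid2 DEX leaves, against 14.06, 14.08 and 14.04 in sid2 mock leaves. The 6 mock arrays were within 0.12 of each other, and the DEX arrays were spread over more than 1 unit below them. TIP1-2 fell in both backgrounds, at -3.58 ± 0.25 in Col (12.0-fold, adjusted p = 3.31e-07) and -3.06 ± 0.25 in sid2 (8.33-fold, adjusted p = 1.25e-06). TIP2-1 (AT3G16240), a channel for water and ammonia, had 10.30, 10.71 and 10.22 in Col DEX leaves, against 13.68, 13.02 and 13.87 in Col mock leaves. Its sid2 levels were 10.90, 10.91 and 10.70 in sid2 DEX leaves, against 13.69, 13.33 and 13.94 in sid2 mock leaves. No DEX array exceeded 11 and no mock array was below 13. TIP2-1 fell in both backgrounds, at -3.11 ± 0.22 in Col (8.64-fold, adjusted p = 3.92e-07) and -2.82 ± 0.22 in sid2 (7.04-fold, adjusted p = 9.36e-07).

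TIP2-2 (AT4G17340) gave 11.67, 11.15 and 10.93 in Col DEX leaves, against 13.85, 13.83 and 13.95 in Col mock leaves. In sid2 it gave 11.24, 11.39 and 10.99 in sid2 DEX leaves, against 13.81, 13.79 and 13.71 in sid2 mock leaves. The groups were again separate, and TIP2-2 fell in both backgrounds, at -2.62 ± 0.16 in Col (6.16-fold, adjusted p = 9.90e-08) and -2.56 ± 0.16 in sid2 (5.90-fold, adjusted p = 1.31e-07). TIP1-1 (AT2G36830), a channel for water, urea and hydrogen peroxide, had 12.55, 12.00 and 12.13 in Col DEX leaves, against 13.70, 13.57 and 13.73 in Col mock leaves. Its sid2 levels were 12.24, 12.27 and 12.29 in sid2 DEX leaves, against 13.64, 13.52 and 13.66 in sid2 mock leaves. The change was smaller than in TIP1-2 but as clear of overlap. TIP1-1 fell in both backgrounds, at -1.44 ± 0.12 in Col (adjusted p = 1.35e-06) and -1.34 ± 0.12 in sid2 (adjusted p = 2.54e-06).

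TIP4-1 (AT2G25810), which transports urea as well as water, moved the other way and had the largest rise of the 35 genes. It measured 9.31, 9.68 and 9.40 in Col DEX leaves, against 6.03, 5.05 and 6.92 in Col mock leaves. In sid2 it measured 9.93, 9.72 and 9.47 in sid2 DEX leaves, against 6.20, 5.50 and 6.79 in sid2 mock leaves. In mock leaves TIP4-1 was below the array median, lowest in replicate 2 and highest in replicate 3 of both backgrounds, while all DEX arrays were above 9. TIP4-1 rose in both backgrounds, at 3.46 ± 0.39 in Col (11.0-fold, adjusted p = 1.42e-05) and 3.55 ± 0.39 in sid2 (11.7-fold, adjusted p = 1.22e-05). Its 3 same-numbered pairs gave 2.48 to 4.63 in Col and 2.68 to 4.22 in sid2.

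The other TIPs were dim on all arrays. The seed forms TIP3-1 and TIP3-2 stayed between 4.28 and 4.96, near the lower quartile, and neither was called. TIP1-3 (4.10 to 5.50) and TIP5-1 (4.67 to 5.94), known from pollen, had DEX effects of -0.72 and -0.71 in Col and -0.74 and -0.57 in sid2, all under 2-fold. The pollen markers were raised in the replicate 2 mock arrays, where neither gene was highest in Col and TIP5-1 in sid2 was at 5.61, against 5.58 in replicate 1. TIP2-3 (4.82 to 6.68) was called lower in Col at -1.02 ± 0.26 (adjusted p = 0.00581) and not in sid2 at -0.54 ± 0.26 (adjusted p = 0.106). Its Col call was lost on leaving out any 1 of the 6 Col arrays, and with the array labelled Col DEX replicate 2 removed its adjusted p was 0.0213.

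Proton pumps of the plasma membrane were set beside the aquaporins. Of the 11 pumps of the AHA family, 1 was called lower and 2 higher in each background, shares near those of all loci (15.0% lower and 13.8% higher in Col, 14.8% and 13.0% in sid2). The Col counts were the same without the array labelled Col DEX replicate 2. AHA11 fell, with DEX effects of -3.04 ± 0.24 in Col and -2.74 ± 0.24 in sid2. AHA9 (2.18 ± 0.15 in Col, 2.41 ± 0.15 in sid2) and AHA4 (1.61 ± 0.31 in Col, 1.50 ± 0.31 in sid2) rose. AHA1 and AHA2, the main pumps of the family, had effects of -0.01 and -0.48 in Col and 0.14 and -0.53 in sid2, not called.

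**Figure D3:**
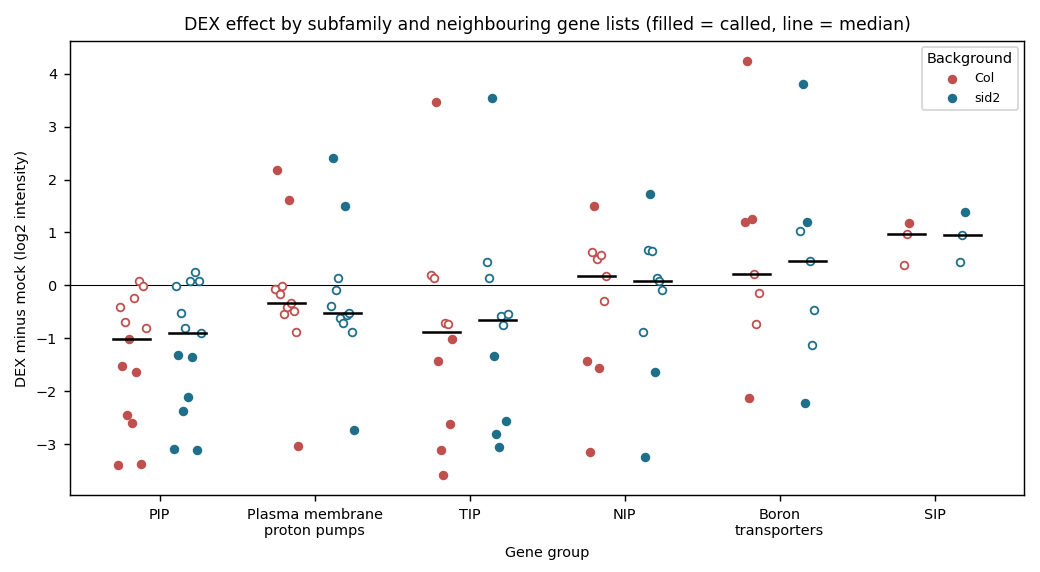
DEX effect (DEX minus mock, log2 intensity) of the members of each aquaporin subfamily and of 2 lists of other membrane proteins, in Col and in sid2. Each point is 1 gene, filled where called, and the line is the median. The TIP points spread between -3.58 and 3.46 in Col, and the lowest AHA point is AHA11 at -3.04.

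NIPs changed in both directions. NIP6-1 (AT1G80760), a boric acid channel of shoots that serves young growing tissue, was among the members with the largest falls. It had 10.19, 9.46 and 10.11 in Col DEX leaves, against 13.00, 12.72 and 13.51 in Col mock leaves. Its sid2 levels were 9.83, 9.63 and 10.10 in sid2 DEX leaves, against 13.18, 12.85 and 13.27 in sid2 mock leaves. Every DEX array was below 10.2 and every mock array above 12.7. NIP6-1 fell in both backgrounds, at -3.16 ± 0.19 in Col (8.92-fold, adjusted p = 9.36e-08) and -3.25 ± 0.19 in sid2 (9.48-fold, adjusted p = 8.40e-08). NIP1-2 (AT4G18910) gave 10.12, 10.24 and 10.15 in Col DEX leaves, against 11.87, 11.50 and 11.84 in Col mock leaves. In sid2 it gave 9.91, 10.14 and 9.83 in sid2 DEX leaves, against 11.77, 11.45 and 11.55 in sid2 mock leaves. The groups did not overlap, and NIP1-2 fell in both backgrounds, at -1.57 ± 0.13 in Col (adjusted p = 1.09e-06) and -1.63 ± 0.13 in sid2 (adjusted p = 8.42e-07).

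NIP7-1 (AT3G06100), a boric acid channel known from anthers, rose. It had 9.58, 8.81 and 8.92 in Col DEX leaves, against 7.57, 6.90 and 8.31 in Col mock leaves. In sid2 it had 9.77, 9.07 and 8.49 in sid2 DEX leaves, against 7.58, 7.02 and 7.56 in sid2 mock leaves. DEX arrays were above mock arrays in both backgrounds, but the Col mock replicate 3 array came within 0.6 of the lowest Col DEX array. NIP7-1 rose in both backgrounds, at 1.51 ± 0.35 in Col (2.84-fold, adjusted p = 0.00327) and 1.72 ± 0.35 in sid2 (3.30-fold, adjusted p = 0.00139). In the mock groups NIP7-1 was lowest in replicate 2, where the pollen markers were highest. The Col call was lost without Col mock replicate 1 (adjusted p = 0.0160), Col mock replicate 2 (0.0181) or Col DEX replicate 1 (0.0189). NIP5-1, the boric acid channel of root uptake, had DEX effects of 0.51 ± 0.29 in Col (adjusted p = 0.165) and 0.65 ± 0.29 in sid2 (adjusted p = 0.0815), not called.

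The boron exporters of the BOR family were examined beside the NIPs. Of 7 loci, 1 was called lower and 3 higher in Col, and 1 lower and 2 higher in sid2, where 15.0% of all loci were called lower and 13.8% higher in Col, and 14.8% and 13.0% in sid2. Without the array labelled Col DEX replicate 2, 2 were called higher in Col, and BOR4 was not among them. BOR1, which loads boron into the xylem, fell in both, with DEX effects of -2.14 ± 0.17 in Col and -2.22 ± 0.17 in sid2. BOR5 rose in both, with DEX effects of 4.23 ± 0.39 in Col and 3.81 ± 0.39 in sid2. BOR4, which exports excess boron, was called higher in Col at 1.19 ± 0.30 (adjusted p = 0.00522) and not in sid2 at 1.02 ± 0.30 (adjusted p = 0.0126).

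Of the remaining 5 NIPs, NIP3-1 alone was called, and in Col. NIP3-1 (AT1G31885), which can carry arsenite, was dim, yet its arrays were closely grouped. It had 4.18, 4.20 and 4.40 in Col DEX leaves, against 5.59, 5.70 and 5.79 in Col mock leaves. In sid2 it had 4.26, 4.35 and 4.50 in sid2 DEX leaves, against 5.22, 5.31 and 5.24 in sid2 mock leaves. All DEX arrays were near the lower quartile, and the Col mock arrays stood highest. NIP3-1 was called lower in Col at -1.44 ± 0.09 (adjusted p = 1.31e-07) and not in sid2, where -0.89 ± 0.09 was under 2-fold (adjusted p = 6.45e-06). NIP2-1, a lactic acid channel induced by low oxygen, had effects of 0.63 ± 0.18 in Col (adjusted p = 0.0110) and 0.68 ± 0.18 in sid2 (adjusted p = 0.00762), under 2-fold. NIP1-1 had 0.57 ± 0.33 in Col (adjusted p = 0.168) and 0.15 ± 0.33 in sid2 (adjusted p = 0.731).

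NIP4-1 (AT5G37810) and NIP4-2 (AT5G37820), neighbours on chromosome 5 that are known from pollen, stayed between 3.41 and 4.57 on all arrays. NIP4-1 had 3.41, 3.58 and 3.54 in Col DEX leaves, against 3.81, 3.85 and 3.72 in Col mock leaves. In sid2 NIP4-1 had 3.83, 3.61 and 3.79 in sid2 DEX leaves, against 3.69, 3.73 and 3.55 in sid2 mock leaves. The replicate 2 mock arrays did not stand out as they did for the pollen markers. NIP4-2 had 4.57, 4.50 and 4.44 in Col DEX leaves, against 4.42, 4.30 and 4.28 in Col mock leaves. In sid2 NIP4-2 had 4.50, 4.21 and 3.94 in sid2 DEX leaves, against 4.36, 4.16 and 4.41 in sid2 mock leaves. The groups of NIP4-2 lay close together. Neither gene was called, with effects of -0.29 and 0.17 in Col and 0.08 and -0.09 in sid2.

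All 3 SIPs, channels of the endoplasmic reticulum, had DEX arrays above mock arrays in both backgrounds (30.9% of all loci in Col, 32.3% in sid2). SIP1-2 (AT5G18290) had 10.15, 11.19 and 10.86 in Col DEX leaves, against 8.91, 9.72 and 10.05 in Col mock leaves. In sid2 it had 10.45, 11.25 and 10.50 in sid2 DEX leaves, against 9.07, 9.71 and 9.26 in sid2 mock leaves. In Col the margin between the highest mock and the lowest DEX array was about 0.1. SIP1-2 rose in both backgrounds, at 1.17 ± 0.28 in Col (adjusted p = 0.00357) and 1.38 ± 0.28 in sid2 (adjusted p = 0.00121). Its Col call was lost when the array labelled Col DEX replicate 2 was removed (1.03, adjusted p = 0.0177), and also without Col mock replicate 1 (adjusted p = 0.0204), Col mock replicate 2 (0.0139) or Col DEX replicate 3 (0.0171). SIP2-1 had the more even change of 0.98 ± 0.10 in Col (adjusted p = 5.17e-06) and 0.94 ± 0.10 in sid2 (adjusted p = 7.15e-06), just under the 2-fold limit. Without the array labelled Col DEX replicate 2 its Col effect was 1.02 and called. SIP1-1 changed by 0.39 ± 0.09 in Col (adjusted p = 0.00436) and 0.43 ± 0.09 in sid2 (adjusted p = 0.00219), also under 2-fold.

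Genes for proteins known to act on PIPs, or of a family with such a member, 12 in all, were counted in the same way. In Col 3 (25%) were called lower, 3 (25%) higher and 6 neither, beside 15.0% of all loci lower and 13.8% higher. These Col counts were the same without the array labelled Col DEX replicate 2. In sid2 2 were called lower, 2 higher and 8 neither, which is near the 14.8% and 13.0% of all loci. BCA4, a carbonic anhydrase that works with PIP2-1 in guard cells, fell in both, with DEX effects of -5.67 ± 0.39 in Col and -4.88 ± 0.39 in sid2. RMA2, of a family of membrane-anchored ubiquitin ligases of which a member targets PIP2-1, fell in both, at -4.25 ± 0.29 in Col and -4.31 ± 0.29 in sid2. The receptor kinase SIRK1, which acts on PIP2-4, was called lower in Col (-1.17 ± 0.11) and stayed under 2-fold in sid2 (-0.90 ± 0.11). BAK1, the co-receptor kinase of immune receptors, which acts on PIP2-1, rose in both, with DEX effects of 1.45 ± 0.10 in Col and 1.56 ± 0.10 in sid2. SYP121, the syntaxin that delivers PIP2 proteins to the plasma membrane, rose in both, at 1.15 ± 0.14 in Col and 1.42 ± 0.14 in sid2. The calcium-dependent kinase CPK7 was called higher in Col (1.04 ± 0.13) and stayed under 2-fold in sid2 (0.92 ± 0.13). OST1, a kinase of abscisic acid signalling that acts on PIP2-1, was under 2-fold at 0.62 in Col and 0.40 in sid2.

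Whether the loss of SID2 altered the aquaporin response was tested as the difference between the DEX effects (sid2 minus Col). limma called 0 of 35 members, as it called 0% of all loci, with 2 members at an unadjusted p under 0.05 beside 2.25% of all loci. The smallest p was that of NIP3-1, at 0.55 ± 0.13 (95% interval 0.27 to 0.83, unadjusted p = 0.00118, adjusted p = 0.999996), positive in 3 of 3 pairs. Between backgrounds (sid2 minus Col), NIP3-1 differed by -0.44 ± 0.09 in mock leaves (adjusted p = 0.472) and by 0.11 ± 0.09 in DEX leaves (adjusted p = 0.961). The difference was above 0 for 27 of the 35 genes and for 12 of the 13 PIPs, with a PIP median of 0.21 beside -0.01 over all loci. Without the array labelled Col DEX replicate 2 these were 25 of 35 and 10 of 13, with a PIP median of 0.13. The 4 mesophyll markers had the same sign, with a median difference of 0.47 and the highest for CA1, a chloroplast carbonic anhydrase, at 1.47 ± 0.48 (unadjusted p = 0.0111, adjusted p = 0.999996), and without that array 3 of 4 were above 0, with a median of 0.32. Their part in the PIP differences was not tested. No PIP had an unadjusted p under 0.05 for the difference in limma (smallest 0.0915). The members were measured on the same arrays, so their signs are not independent. The share of all loci with a difference above 0 is not given here. The 95% interval stayed within 2-fold in both directions for 24 members and reached beyond it for 11, among them PIP2-1 (-0.09 to 1.07), TIP1-2 (-0.26 to 1.30), TIP4-1 (-1.12 to 1.29) and NIP7-1 (-0.88 to 1.31). For those 11 a 2-fold difference lies within the interval. These intervals include the array labelled Col DEX replicate 2, and they were not counted without it.

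**Figure D4:**
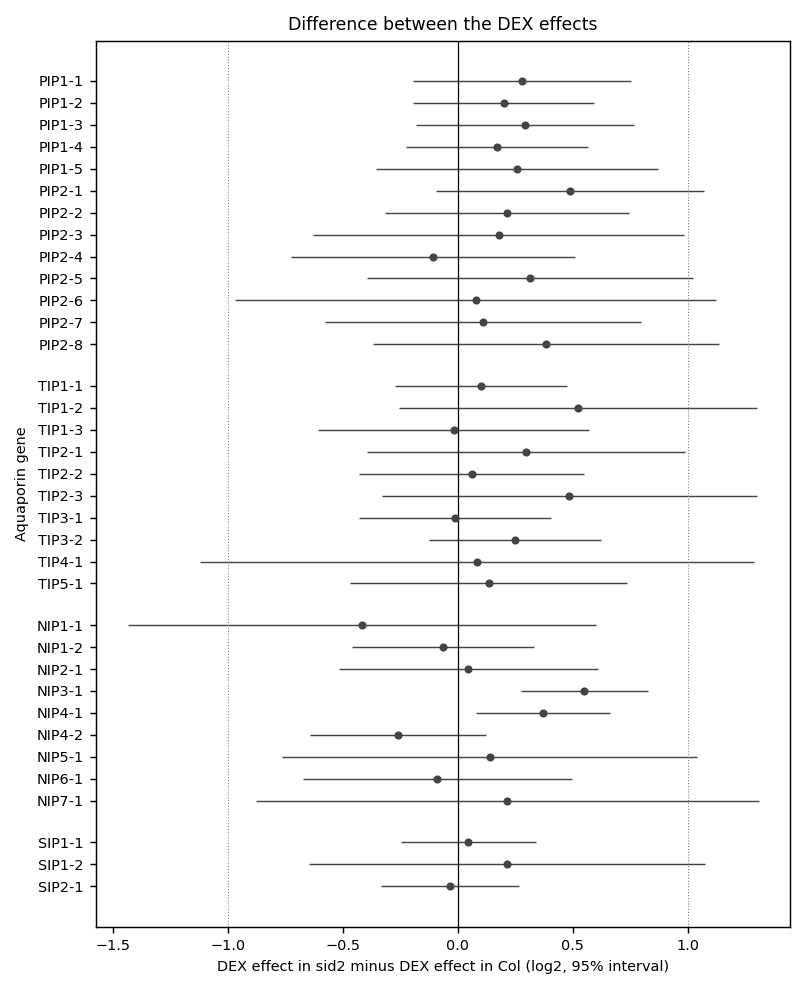
Difference between the DEX effects (sid2 minus Col, log2) of each aquaporin gene with its 95% interval, and dotted lines at the 2-fold limits. The interval includes 0 for 33 of the 35 genes, the exceptions being NIP3-1 and NIP4-1, and none of the differences was called.

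The backgrounds were also compared within each treatment. In DEX leaves (sid2 minus Col) limma called 0 members, beside 0% of all loci, with 4 members at an unadjusted p under 0.05 (5.77% of all loci), and the effects ranged between -0.28 and 0.56. In mock leaves limma called 0 members, beside 0.00306% of all loci (PR1 alone). NIP3-1 was the 1 member at an unadjusted p under 0.05 (6.95% of all loci), and the members' effects ranged between -0.44 and 0.60. Leaving out the array labelled Col DEX replicate 2 gave no called member in either treatment. SID2, the mutated gene, was itself not called in mock leaves, at -3.97 ± 1.19 (adjusted p = 0.615). Its SE, fitted over all groups, takes in the Col DEX levels of 6.08 to 12.48. PR1, the SA marker, read 5.64, 4.60 and 4.91 in sid2 mock leaves, against 8.55, 9.93 and 9.78 in Col mock leaves, and was called lower in sid2 (adjusted p = 0.00393).

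Levels on mock arrays varied with the replicate over all loci, and not in PIPs alone. Over all loci, deviations of the Col and sid2 mock arrays correlated at 0.733 for replicate 2 and 0.623 for replicate 3. In mock leaves, 10 of the 13 PIPs had their lowest array in replicate 2 of both backgrounds and 10 their highest in replicate 3 of both. The same held for 3 and 6 of the 10 TIPs, 3 and 2 of the 9 NIPs, and 0 and 1 of the 3 SIPs. The share of all loci with these orders was not counted. Without the replicate 2 mock arrays, 7 PIPs were called lower in Col and 7 in sid2. TIPs then had 4 called lower and 1 higher in each background. NIPs had 3 lower and 0 higher in Col, and 2 lower and 1 higher in sid2. SIPs had 0 lower in both, with 0 higher in Col and 1 in sid2. Shares of all loci without these arrays are not given here.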

How the data were processed

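Probes followed TAIR9. The authors, per their methods, summarised probe signals by robust multi-array averaging in the NimbleGen software, whose version is not given in the sources used here, and kept the transcript with the higher value for each gene. The deposited values were intensities on a linear scale, 1 per locus and array, and were converted to log2 here. That method as a whole brings the arrays to a common scale, so a change in total RNA does not show. Probe values, scan data and sequences were not analysed here. A RefSeq table of assembly TAIR10.1, which held all 35 members, was used for names and for neighbouring genes. The number of arrays limits the precision.

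A model with 4 group means was fitted to all 32627 loci and 12 arrays with limma 3.58.1 in R 4.3.3, after the model the study describes. Replicate was a random block (duplicateCorrelation, statmod 1.5.0, consensus correlation 0.208), with a prior of 2.72 degrees of freedom. The p-values were adjusted over all loci by Benjamini and Hochberg's method. The methods describe 3 independent experiments, so arrays with 1 number were treated as pairs. Deviations of same-numbered DEX and mock arrays of 1 background correlated at 0.100 to 0.303. Those of same-numbered Col and sid2 arrays of 1 treatment correlated at 0.387 to 0.733. The fit was tested on simulated data.

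The members and lists were chosen with earlier results of these data known. Values on every array are given for members called in at least 1 DEX contrast whose higher group mean was above the median of all loci (8.06), for the member with the smallest p of the difference, and for neighbouring pairs of near-identical members. The remaining members are given by range and counts. A list of tonoplast pumps and channels is not reported here.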

Additional observations from a re-analysis of the deposited data

How the results depend on the processing

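The 12 members called lower in both backgrounds, and TIP4-1, kept their calls in both under each of 23 alternatives that kept the calling rule. No called DEX effect of a member changed sign. Some that were not called did, such as that of PIP2-7 in Col, which lay between -0.18 and 0.18. Leaving out 1 array at a time gave 13 to 15 members called lower and 1 to 4 higher in Col, and 12 to 13 lower and 3 to 4 higher in sid2. In Col the count of higher calls was 1 on leaving out Col mock replicate 1 or replicate 2, and 13 were called lower without the array labelled Col DEX replicate 2. On dropping the replicate 2 arrays in all groups, 1 member was called higher in Col and 1 in sid2. Without the replicate 2 mock arrays, an alternative chosen after seeing the data, 1 was called higher in Col. With limma's treat at the 2-fold limit 1 was called higher in each background. With a limit of 4-fold, Col had 8 called lower and 1 higher, and in sid2 the same 8 were called lower and 1 higher. With no fold limit 5 were called higher in Col and 7 in sid2. Counts of lower calls with treat and with no fold limit are not given here. The fit with no replicate block called 14 lower and 2 higher in Col and 12 and 3 in sid2, and the fixed block 15 and 3 in Col and 12 and 3 in sid2. With 16 added to the intensities, NIP3-1 was at -0.95 in Col and not called. TIP2-3 (adjusted p = 0.0265) and SIP1-2 (0.0153) lost their Col calls with no block. Shifting the arrays to a common median gave 13 lower and 4 higher in Col, and 12 and 4 in sid2. The difference between the DEX effects and the sid2 effects had 0 members called under every alternative run, and a fit with the groups of the contrast alone could not be made for that difference, which uses all groups. The table holds no background signal, so for dim members such as TIP2-3 and NIP3-1 it is not known how far the signal stood above it.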
